A study of Mus musculus with 6 samples.

Results

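The suppressor of cytokine signalling (SOCS) family was described in mouse hearts with and without STAT3 in cardiomyocytes. Its members were taken by gene symbol, Socs1 to Socs7 and Cish, which gave 8 of the 46095 genes in the count table, and all 8 passed the filter on low counts that left 14484 genes. RNA sequencing had been done on 3 hearts labelled STAT3cKO, in which STAT3 was deleted only in cardiomyocytes, and on 3 wild-type hearts. The labels give no Cre driver, age, sex, strain, litter or batch, do not say whether the wild-type mice carried floxed alleles or a Cre, and do not say that each library came from a separate animal. If they did not, the p-values cover no more than the spread of these libraries, which may be technical. Where hearts are listed singly, wild type is given as replicates 1, 3 and 4 and STAT3cKO as replicates 3, 6 and 91. Levels are in CPM, TMM-scaled counts per 1000000 reads, and differences are log2 fold changes of STAT3cKO against wild type.

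Several SOCS proteins close a feedback loop. Cytokine and hormone receptors activate JAK kinases, and the kinases phosphorylate STAT factors. The STAT factors switch on some SOCS genes, such as Cish, Socs2 and Socs3, whose products then restrain the receptor or the kinase. Each protein has a central SH2 domain that binds phosphotyrosine and a SOCS box at its C terminus that recruits elongins B and C and a cullin, so that bound proteins can be ubiquitinated. SOCS3 is the classical target of STAT3 and inhibits receptors that signal through gp130, the shared subunit of the IL-6 family receptors, which act on cardiomyocytes.

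A promoter window was found in RefSeq (GRCm38.p6) for Socs1, Socs3, Socs4 and Cish and was not matched for Socs2, Socs5, Socs6 and Socs7. Each window ran from 250 bases before the annotated start to 50 after it and was searched for TTCNNNGAA, the core of a STAT binding site, which reads the same on both strands. Of 32851 such windows of all genes, 8.3% held the motif and 0.457% held at least 2 copies. Cish held 2 copies, Socs3 held 1, and these letters were not in the windows of Socs1 and Socs4. The stretches around the matches are shown because they hold the motif copies found in the 4 windows searched, with the motif in capitals. The stretch before Socs4 is shown because Socs4 was the member that differed between the groups.
Socs3, chr11:117969502-117969531, minus strand: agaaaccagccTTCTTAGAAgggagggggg
Cish, chr9:107296654-107296683, plus strand: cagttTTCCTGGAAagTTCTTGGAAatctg
Socs4, chr14:47276862-47276919, plus strand: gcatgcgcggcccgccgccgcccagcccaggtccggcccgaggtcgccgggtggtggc
The Socs3 match begins 154 bases before the start that the window is built on. That start is an internal one, because the RefSeq gene reaches to 117970336 and the GENCODE gene to 117970047, so the match lies inside the gene. In Cish the first match begins at the RefSeq start itself and the second 11 bases further on. Both lie inside the GENCODE gene, which starts at 107296026. Sequence before the GENCODE starts of Socs3 and Cish was not searched. The Socs4 stretch is the whole interval of 58 bases between the RefSeq starts of Socs4 and of Wdhd1, a replication-associated gene that runs the opposite way.

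Library depth ran from 15416877 to 18264052 counts per heart. Stat3 itself stood at 99.7, 85.8 and 97.5 CPM in the wild-type hearts, against 52.9, 63.7 and 59.6 CPM in the STAT3cKO hearts (edgeR log2 fold change -0.68 ± 0.10 SE, n = 3 each, adjusted p = 0.000677). Every STAT3cKO heart was below every wild-type heart, and the gene-level count does not show which exons were read. Whole-heart RNA also holds transcripts of cells outside the deletion, and in it fewer cells of a type and less RNA per cell cannot be told apart. Stat3 shares 72 exonic bases with Stat5a on the opposite strand. Longer transcripts tended to have lower fold changes, with Spearman's rho of -0.429 over the 13580 tested genes of known length (genes are not independent replicates). The longest 10% had a median log2 fold change of -0.31 and the shortest 10% one of 0.44. A second fit that removes the trend with transcript length and GC content, called the length-corrected fit, is therefore given beside the first, and in it rho was 0.00161. Stat3 had a smaller log2 fold change in that fit, -0.43 (edgeR adjusted p = 0.00811).

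Per kilobase of exon, the family spanned a wide range of levels in wild-type hearts. Cish, which restrains STAT5 signalling downstream of growth hormone, prolactin and related receptors, was highest at 19.0 ± 1.25 CPM per kb (SD, n = 3). Socs2, the regulator of growth hormone signalling, followed at 12.2 ± 1.38 CPM per kb. Next came Socs5 at 6.26 ± 0.441, Socs7 at 5.26 ± 0.395 and Socs6 at 3.93 ± 0.360 CPM per kb, all members with long N-terminal regions. Socs3 stood at 1.72 ± 0.423, Socs4 at 1.08 ± 0.187 and Socs1 at 0.392 ± 0.128 CPM per kb. The ranges of neighbours in this order did not overlap except those of Socs3 and Socs4.

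The order of mean levels was identical in STAT3cKO hearts. There the means were 20.5 ± 4.05 CPM per kb for Cish, 13.2 ± 2.88 for Socs2, 5.79 ± 0.615 for Socs5 and 4.82 ± 1.09 for Socs7. They were 3.90 ± 0.0616 for Socs6, 1.96 ± 0.638 for Socs3, 0.608 ± 0.0485 for Socs4 and 0.347 ± 0.134 for Socs1. Socs3 and Socs4 no longer overlapped, while Socs5 overlapped Socs7 and Socs7 overlapped Socs6. Cish and Socs2, the pair tied to STAT5, held the largest shares of the summed family level, with Cish at 35.9% to 39.4% in wild type and 35.6% to 46.7% in STAT3cKO and Socs2 at 22.4% to 26.1% and 19.4% to 29.8%. The summed level was 48.1, 51.9 and 49.6 CPM per kb in the wild-type hearts, against 52.4, 46.1 and 55.0 in the STAT3cKO hearts, so the groups overlapped.

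**Figure D1:**
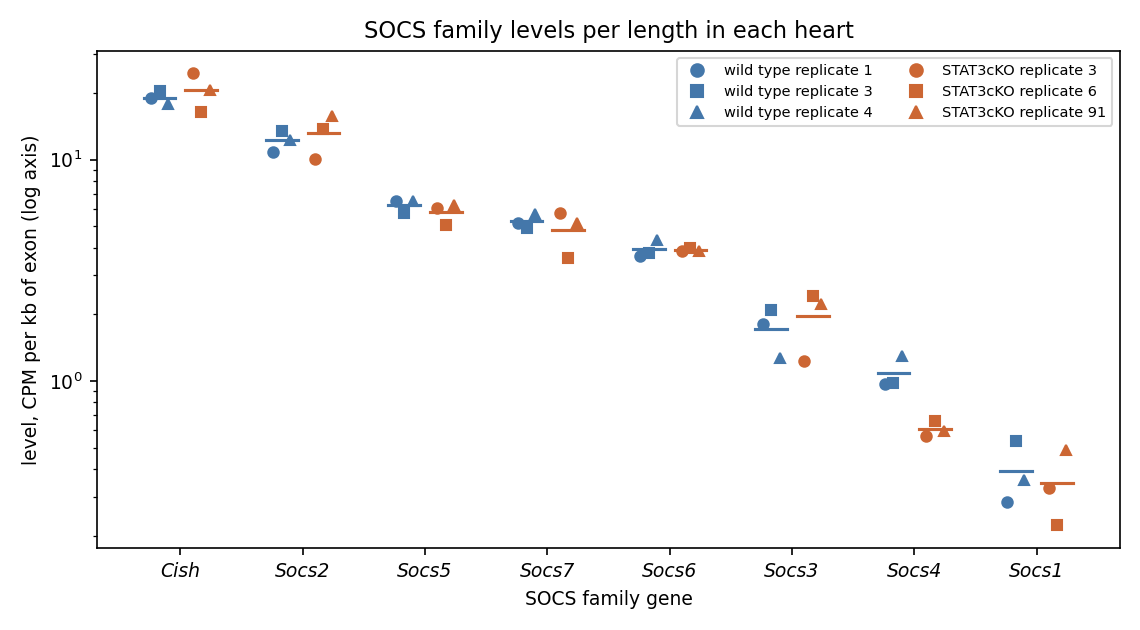
Level of each SOCS family gene per kilobase of exon (CPM per kb, log axis) in each of 6 hearts, ordered by the wild-type mean, with points for hearts and bars for group means. Cish is highest and Socs1 lowest in both groups, and only for Socs4 do the 3 STAT3cKO points lie apart from the 3 wild-type points.

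Against wild type, 1 of the 8 members was lower in STAT3cKO hearts, 0 were higher and 7 did not pass (edgeR, adjusted p under 0.05). Of all 14484 genes tested, 12.6% were lower and 13.2% higher, so a count of 1 lower member is near the background. At an edgeR unadjusted p under 0.05 the count was also 1 of 8, against 5586 of all 14484 genes, a larger share. DESeq2 and limma-voom likewise called 0 members higher and 1 lower. Over all genes DESeq2 called 1814 higher and 1739 lower, and limma-voom 1936 and 1836. The median log2 fold change of the members was -0.06, against -0.00 over all genes tested. In the length-corrected fit it was 0.16, against 0.02 over all genes, so its sign depended on the fit. For 1 member, which was lower in STAT3cKO, the groups did not overlap, against 43% of all genes tested (21.5% lower and 21.5% higher).

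The member that fell was Socs4, a SOCS protein with a long N-terminal region that has been linked to the EGF receptor (GENCODE M21 on GRCm38, as for all gene positions here, chromosome 14, 47276931 to 47296102, plus strand). The wild-type hearts held 6.69, 6.74 and 8.94 CPM, from 130, 113 and 163 reads. The STAT3cKO hearts held 3.89, 4.54 and 4.11 CPM, from 57, 70 and 75 reads. The 3 STAT3cKO hearts lay close together and all below the lowest wild-type heart. The mean went from 7.46 ± 1.28 to 4.18 ± 0.334 CPM (SD, n = 3 each), a fold of 0.561 with a 95% interval from 0.421 to 0.747 (edgeR log2 fold change -0.83 ± 0.19 SE, adjusted p = 0.00767). Its exons sum to 6877 nt, and the length-corrected log2 fold change was -0.61 (edgeR adjusted p = 0.0324, with 7.91% of all genes called lower in that fit). The call was weakest without wild type replicate 4, the highest heart (edgeR log2 fold change -0.68, adjusted p = 0.0441).

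No other gene of GENCODE M21 overlaps Socs4, but its start lies beside that of Wdhd1, which was looked up for this position. Wdhd1 stood at 1.34, 1.55 and 1.86 CPM in the wild-type hearts, against 1.02, 1.49 and 2.52 CPM in the STAT3cKO hearts. Its groups overlapped, and it did not pass (edgeR log2 fold change 0.10 ± 0.36 SE, adjusted p = 0.856, from 15 to 46 reads a heart). Among 8757 named genes with a mean of at least 3 log2 CPM, those whose log2 CPM over the 6 hearts was most like that of Socs4 were Impad1 (Pearson's r = 0.998), Ankfy1 (0.996) and Usp28 (0.995). All 6 hearts share the genotype split, which enters these values. They are also the highest of 8757 correlations, each over only 6 hearts. They therefore do not show that these genes are regulated together with Socs4. By edgeR, Impad1 differed by -0.61 on the log2 scale (adjusted p = 0.00204), Ankfy1 by -0.28 (0.0459) and Usp28 by -0.20 (0.0958).

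Socs3 and Socs1 are the members with a kinase inhibitory region, with which they block JAK kinases directly. Socs3 (chromosome 11, 117966079 to 117970047) stood at 4.58, 5.37 and 3.24 CPM in the wild-type hearts, against 3.14, 6.17 and 5.69 CPM in the STAT3cKO hearts. STAT3cKO replicate 3 was the lowest of all 6 hearts and the other two STAT3cKO hearts were the highest, so the groups overlapped fully. The fold was 1.14 with a 95% interval from 0.759 to 1.72 (edgeR log2 fold change 0.19 ± 0.27 SE, adjusted p = 0.633). The interval leaves room for a decrease to 0.759 or an increase to 1.72 of the wild-type level. With 46 to 104 reads a heart, counting error alone was 9.81% to 14.7% of a value.

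Socs1, the main inhibitor of interferon signalling in the family (chromosome 16, 10782240 to 10785536), was covered by few reads. Wild-type hearts had 16, 26 and 19 reads (0.824, 1.55 and 1.04 CPM), against 14, 10 and 26 reads (0.955, 0.649 and 1.42 CPM) in STAT3cKO. A difference was not detectable at this depth (fold 0.903, 95% interval from 0.487 to 1.67, edgeR adjusted p = 0.817), and a change to 0.487 of the wild-type level is inside the interval.

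Cish and Socs2, known as STAT5 targets, were measured more precisely. Cish (chromosome 9, 107296026 to 107302784) stood at 69.1, 74.0 and 64.9 CPM in the wild-type hearts, against 89.3, 59.8 and 75.3 CPM in the STAT3cKO hearts. The STAT3cKO group held both the highest and the lowest heart. Its fold was 1.08 with a 95% interval from 0.887 to 1.31 (edgeR log2 fold change 0.11 ± 0.13 SE, adjusted p = 0.566). Cish shares 261 exonic bases with Gm17040 and 479 with Gm17041 on the opposite strand, and the strand setting of the counting is not given, so its count is uncertain to that extent. Gm17040 had 4 to 14 reads a heart, against 921 to 1375 for Cish, and Gm17041 was not in the count table. These counts do not show how many reads the overlaps added to Cish or took from it.

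Socs2 (chromosome 10, 95385362 to 95417180) stood at 29.1, 36.5 and 33.2 CPM in the wild-type hearts, against 27.4, 37.0 and 42.8 CPM in the STAT3cKO hearts. Again the lowest and the highest heart were STAT3cKO. The fold was 1.09 with a 95% interval from 0.862 to 1.37 (edgeR log2 fold change 0.12 ± 0.15 SE, adjusted p = 0.595).

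Socs5, Socs6 and Socs7 are the remaining members with long N-terminal regions. Socs6, which binds activated KIT (chromosome 18, 88665224 to 88927481), gave the closest pair of group means, 24.1 ± 2.21 CPM for wild type against 24.0 ± 0.378 CPM for STAT3cKO (SD, n = 3 each). Its hearts ran from 22.4 to 26.6 CPM (wild type) and from 23.7 to 24.4 CPM (STAT3cKO), the latter range inside the former. The 95% interval of its fold ran from 0.849 to 1.16 (edgeR adjusted p = 0.962). Socs5, an inhibitor of IL-4 and EGF receptor signalling (chromosome 17, 87107679 to 87137839), stood at 26.7 to 30.3 CPM (wild type) against 23.6 to 28.9 CPM (STAT3cKO). Its fold was 0.925 with a 95% interval from 0.783 to 1.09 (edgeR adjusted p = 0.486). Socs7, which binds insulin receptor substrate proteins (chromosome 11, 97362551 to 97398542), stood at 34.5 to 39.9 CPM in the wild-type hearts, against 40.1, 25.3 and 36.1 CPM in the STAT3cKO hearts. Its fold was 0.917 with a 95% interval from 0.731 to 1.15 (edgeR adjusted p = 0.571).

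For Socs2, Socs5, Socs6, Socs7 and Cish the interval therefore lay within 0.731 and 1.37 of the wild-type level, and for Socs1 and Socs3 it was wider. In Socs4 the upper bound was 0.747, below the lower bounds of Socs3 (0.759), Socs5 (0.783), Socs6 (0.849), Socs2 (0.862) and Cish (0.887). The Socs4 interval overlapped those of Socs7 (from 0.731) and Socs1 (from 0.487). Differences between members were not tested. The long members Socs5, Socs6 and Socs7 had log2 fold changes of -0.11, -0.01 and -0.12, which became 0.02, 0.19 and 0.18 in the length-corrected fit, and none passed in either fit. Socs1, Socs2, Socs3 and Cish stood at -0.18, 0.21, 0.15 and 0.27 in the length-corrected fit and did not pass there.

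**Figure D2:**
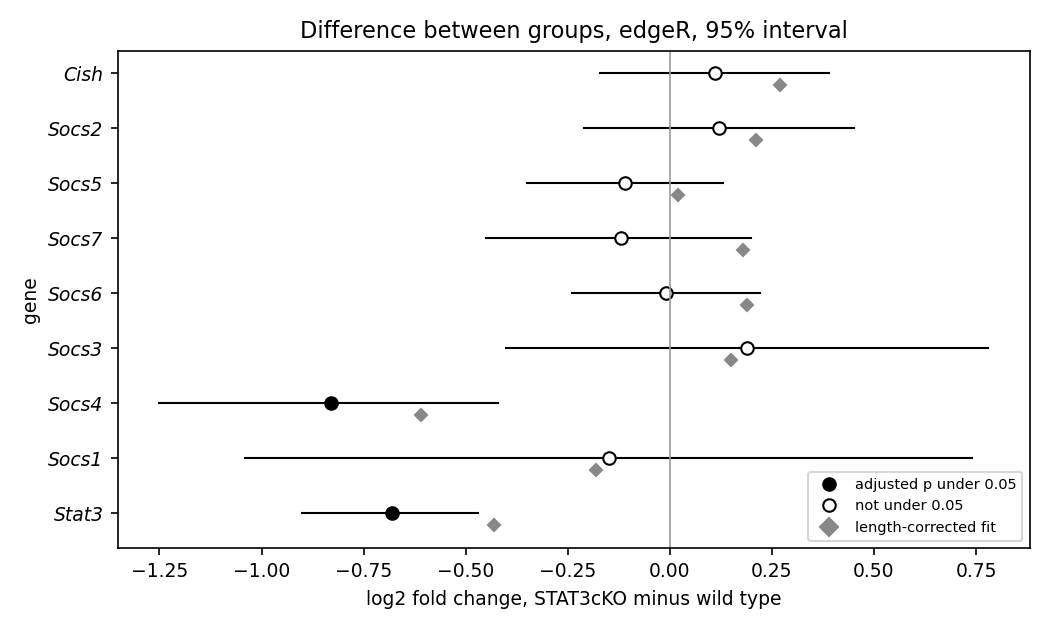
Log2 fold change of each member and of Stat3 (STAT3cKO minus wild type, circles) with its 95% interval from edgeR, and the value from the length-corrected fit (diamonds). Socs4 and Stat3 have filled circles and intervals below 0, at -0.83 and -0.68, and the other 7 intervals cross 0.

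Hearts of the STAT3cKO group differed from each other more than wild-type hearts did for several members, as a description without a test. The highest STAT3cKO heart was 1.49 times the lowest for Cish, 1.56 times for Socs2, 1.59 times for Socs7 and 1.96 times for Socs3, against 1.14, 1.26, 1.16 and 1.66 times in wild type. For Socs4 the ratio was 1.17 in STAT3cKO and 1.34 in wild type, and for Socs6 it was 1.03 and 1.19. The members did not move together from heart to heart. STAT3cKO replicate 3 was lowest of its group for Socs2, Socs3 and Socs4 and highest for Cish and Socs7. STAT3cKO replicate 6 was highest of its group for Socs3, Socs4 and Socs6 and lowest for Socs1, Socs5, Socs7 and Cish.

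**Figure D3:**
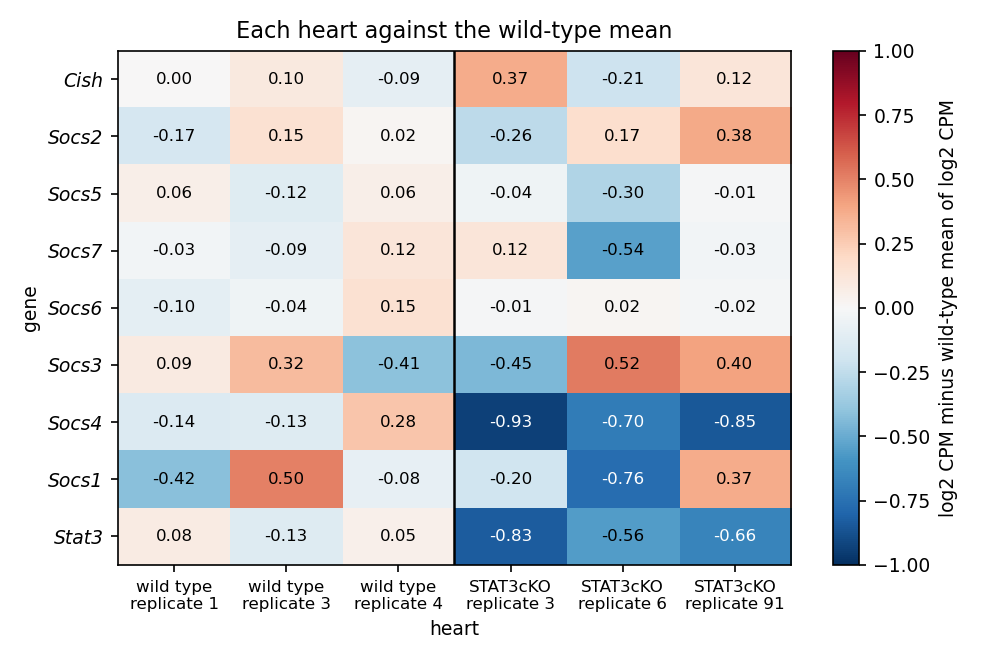
Log2 CPM of each member and of Stat3 in each heart minus the wild-type mean, with red for higher and blue for lower. Socs4 is blue in all 3 STAT3cKO hearts (-0.93, -0.70 and -0.85), as is Stat3, while Cish, Socs2 and Socs3 have both signs among those hearts.

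The genes that surround the SOCS family in the pathway were taken from fixed lists. The counts below are to be read beside the share of all 14484 tested genes, 12.6% lower and 13.2% higher. In the length-corrected fit that share was 7.91% lower and 10.9% higher. No list was tested as a set, and several counts are near these shares. Of 11 JAK kinases and STAT factors, 1 rose and 2 fell (edgeR, median log2 fold change -0.13). Besides Stat3, the gene that fell was Stat5b, one of the STAT5 factors that act on Cish and Socs2, from 63.5 ± 0.600 to 50.9 ± 5.33 CPM (SD, n = 3 each; edgeR log2 fold change -0.32, adjusted p = 0.0265). This call was lost in the length-corrected fit (edgeR adjusted p = 0.373) and without any of the hearts other than STAT3cKO replicate 6 (0.0657 to 0.112). Jak3, the kinase paired with the common gamma chain in lymphoid cells, rose from 24.0 ± 3.30 to 35.9 ± 3.12 CPM (edgeR log2 fold change 0.57, adjusted p = 0.00462). Without STAT3cKO replicate 3, 2 genes of the list rose.

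Among 27 tested receptors and receptor substrates that SOCS proteins act on, 3 rose and 6 fell (edgeR, median log2 fold change -0.11). Prlr, the prolactin receptor, fell from 10.7 ± 1.51 to 4.18 ± 1.66 CPM (edgeR log2 fold change -1.37, adjusted p = 0.00328). Il6ra, the IL-6 receptor, fell from 6.06 ± 0.815 to 2.94 ± 0.824 CPM (edgeR log2 fold change -1.03, adjusted p = 0.00812), a call lost in the length-corrected fit (0.0679). Kit, the stem cell factor receptor that SOCS6 binds, fell from 7.96 ± 0.288 to 4.28 ± 1.16 CPM (edgeR log2 fold change -0.90, adjusted p = 0.00762). Il11ra1, the IL-11 receptor, rose from 44.7 ± 5.74 to 68.1 ± 1.43 CPM (edgeR log2 fold change 0.61, adjusted p = 0.00141). In the length-corrected fit, or without STAT3cKO replicate 3, 3 receptors fell.

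The partners that make a ubiquitin ligase with the SOCS box rose in 5 of 13 cases and fell in 1 (edgeR, median log2 fold change 0.10). Elongin C, listed as Tceb1, rose from 54.4 ± 2.19 to 69.4 ± 0.998 CPM (edgeR log2 fold change 0.35, adjusted p = 0.00936), and elongin B, listed as Tceb2, rose from 70.7 ± 6.97 to 91.5 ± 3.37 CPM (0.37, adjusted p = 0.0118). Both calls were lost in the length-corrected fit (edgeR adjusted p = 0.0952 and 0.103) and without wild type replicate 3 (0.0504 and 0.0619), and that of Tceb2 without wild type replicate 4 (0.0544). Rbx1, a RING subunit of cullin ligases, rose (edgeR log2 fold change 0.49, adjusted p = 0.00338), as did Nedd8, the modifier that activates cullins (0.77, adjusted p = 0.000598), and both passed in that fit. Rnf7, named to complete the count after its values were seen, rose (0.33, edgeR adjusted p = 0.0248), a call lost in that fit (0.08, 0.571). There 4 genes rose, with Ube2f (edgeR adjusted p = 0.0207) and Ube2d3 (0.00153) besides Rbx1 and Nedd8. The cullins Cul5 and Cul2 did not pass in either fit. The gene that fell was Ube2d1, an E2 enzyme named to complete the count after its values were seen (edgeR log2 fold change -0.32, adjusted p = 0.0383). No gene of the list fell in the length-corrected fit, with DESeq2, or without any of the hearts other than STAT3cKO replicate 3. The number that rose was 2 with library size as the only scaling, 2 without wild type replicate 3 and 3 without wild type replicate 4.

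Other inhibitors of the pathway fell in 5 of 18 cases and 0 rose (edgeR, median log2 fold change -0.16). Cbl, a ubiquitin ligase for activated receptors, fell from 37.0 ± 3.32 to 20.1 ± 2.96 CPM (edgeR log2 fold change -0.88, adjusted p = 0.000594). Grb14, an adaptor that inhibits the insulin receptor (-0.44, edgeR adjusted p = 0.00626), and Sh2b3, an adaptor that restrains JAK2 (-0.40, adjusted p = 0.0109), fell too. Ptprc, the CD45 phosphatase of leukocytes, fell (-0.62, edgeR adjusted p = 0.0117), a call lost in the length-corrected fit (0.0567), in which 4 genes of the list fell and 1 rose.

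Genes of other families that share the SOCS box rose in 2 of 24 cases and fell in 1 (edgeR, median log2 fold change -0.04). The muscle genes Asb11, from 96.8 ± 5.55 to 165 ± 20.4 CPM (edgeR log2 fold change 0.77, adjusted p = 0.000481), and Asb14, from 88.2 ± 3.74 to 128 ± 14.1 CPM (0.54, adjusted p = 0.00209), rose. Asb18 fell (-0.50, edgeR adjusted p = 0.0288), a call lost in the length-corrected fit (0.0696) and without wild type replicate 1 (0.0799), wild type replicate 4 (0.102) or STAT3cKO replicate 91 (0.0966). In the length-corrected fit 3 genes of the list fell, namely Asb2 (edgeR adjusted p = 0.0445), Asb12 (0.031) and Neurl2 (0.00309), named to complete the count after their values were seen. The number that fell was 2 without wild type replicate 3, 3 without STAT3cKO replicate 6 and 2 with DESeq2.

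STAT target genes outside the family rose in 4 of 25 cases and fell in 2 (edgeR, median log2 fold change 0.10). Vegfa, an endothelial growth factor, rose from 264 ± 20.4 to 459 ± 41.7 CPM (edgeR log2 fold change 0.80, adjusted p = 0.000379). Junb, an AP-1 factor, rose from 6.97 ± 0.539 to 15 ± 5.81 CPM (edgeR log2 fold change 1.10, adjusted p = 0.016), a call lost in that fit (0.0775) and without wild type replicate 3 (0.0553), wild type replicate 4 (0.070) or STAT3cKO replicate 91 (0.0527). Ccnd1, cyclin D1, fell (edgeR log2 fold change -0.54, adjusted p = 0.0033), and so did Igf1, a growth factor induced by growth hormone through STAT5, from 27.5 ± 5.39 to 18.5 ± 0.498 CPM (-0.57, adjusted p = 0.00894), which did not pass in that fit (0.0806). Cebpb (edgeR log2 fold change 0.49, adjusted p = 0.0203) and Cebpd (1.26, adjusted p = 0.0457), named to complete the count after their values were seen, rose too. In the length-corrected fit Cebpd passed (edgeR adjusted p = 0.0483) and Cebpb did not (0.174). Leaving out any wild-type heart, or STAT3cKO replicate 6, reduced the rises to 2, and without a low-count filter 7 rose.

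**Figure D4:**
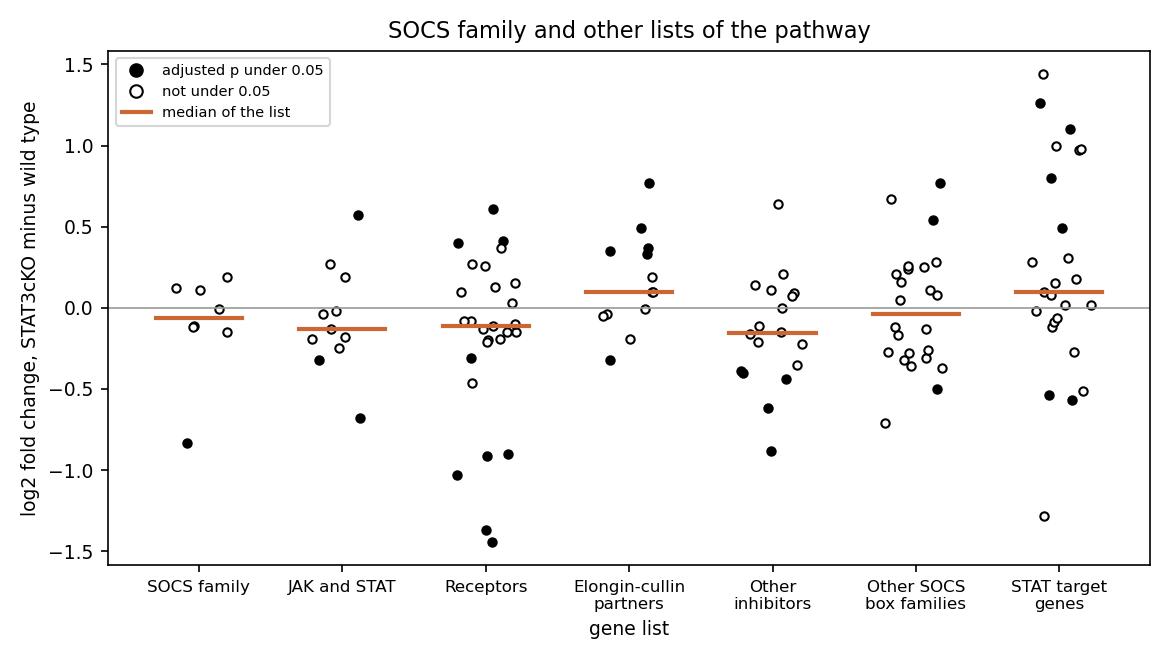
Log2 fold change (STAT3cKO minus wild type) of each tested gene of the SOCS family and of 6 other lists of the pathway, filled where the edgeR adjusted p is under 0.05, with a bar at each list's median. Of the SOCS family 1 gene is filled, at -0.83, and the list medians lie between -0.16 and 0.10.

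Markers of several heart cell types differed between the groups. Of all genes tested, 12.6% were lower and 13.2% higher by edgeR, and 7.91% and 10.9% in the length-corrected fit. Cardiomyocyte markers were abundant in every heart, with summed levels of 79700 to 88000 CPM (wild type) against 91100 to 103000 CPM (STAT3cKO) (6 of 15 rose and 2 fell). Endothelial markers summed to 1230 to 1480 CPM against 904 to 1010 CPM (6 of 11 fell, 0 rose). Smooth muscle and pericyte markers summed to 1710 to 1810 and 973 to 1270 CPM (7 of 11 fell, 0 rose), and macrophage and monocyte markers to 555 to 711 and 426 to 613 CPM (7 of 12 fell, 0 rose). Fibroblast markers summed to 2790 to 4140 and 3620 to 4420 CPM (1 of 11 rose, 2 fell). Red blood cell markers summed to 90.7 to 159 and 334 to 685 CPM (4 of 5 rose, 0 without any of the wild-type hearts and 1 without STAT3cKO replicate 91). Of 12 lymphocyte markers 3 passed the filter, of which 1 rose and 0 fell, and Trac had no read in any heart. The marker that rose was Cd79b, from 0.397 to 1.11 CPM (edgeR log2 fold change 1.46, adjusted p = 0.0442), a call lost under 9 of 15 alternatives. In the length-corrected fit 0 cardiomyocyte markers, 1 fibroblast marker and 4 smooth muscle and pericyte markers fell and 1 red blood cell marker rose, and without a low-count filter 0 red blood cell markers rose. Without 1 heart the fibroblast counts were 1 to 2 rising and 1 to 3 falling, and 1 endothelial marker rose without STAT3cKO replicate 6. The part of these cell types in the Socs4 difference was not tested.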

How the data were processed

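The authors deposited 1 table of raw read counts per gene symbol for 6 hearts. Per the submitters' processing notes, HISAT2 and GRCm38 were used. How reads were counted, with which strand setting and with what treatment of multiply mapped reads, is not stated in the labels.

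Genes were filtered with filterByExpr of edgeR 4.0.16 (minimum count 10), scaled by TMM and tested with the robust quasi-likelihood F test for genotype (R 4.3.3). P-values were adjusted by Benjamini-Hochberg over all 14484 tested genes, with a threshold of 0.05. Standard errors were computed as the log2 fold change over the square root of F, and 95% intervals use the moderated degrees of freedom. The test was also run on counts simulated with the dispersions of these libraries. That simulation held no trend with transcript length, so it does not show how the test behaves under such a trend. CPM per kb uses the union of GENCODE M21 basic exons. For Socs1 this union is 2908 nt, in a gene from 10782240 to 10785536, while the RefSeq gene spans only 10783808 to 10785536. Its level per kb, and the gap to Socs4, therefore depend on the annotation. For Socs2 the union is 2698 nt, while its longest GENCODE transcript has 4242 nt. For Cish these lengths are 3647 and 4697 nt. The levels per kb of Socs2 and Cish, the family shares and the summed level therefore depend on the annotation too. The length-corrected fit has as an offset a spline trend (5 degrees of freedom each) of each heart's log2 CPM deviations on transcript length and GC content, and 93.8% of the genes tested had a length.

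The members and lists were chosen with earlier results of these data known. Named genes were all members, Stat3, up to 4 genes of each pathway list with the smallest adjusted p under 0.05, and the 3 genes most like a member that passed. The alternatives were other scalings and filters, DESeq2 1.42.0, limma-voom (limma 3.58.1), non-robust estimation, leaving out haemoglobin and mitochondrial genes, the length-corrected fit, and leaving out each heart.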

Additional observations from a re-analysis of the deposited data

How the results depend on the processing

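Socs4 kept its direction and its call under all 16 alternatives, with log2 fold changes from -0.95 to -0.61 and adjusted p from 0.000816 to 0.0441, and without 1 heart it ran from -0.91 to -0.68. No other member passed under any of them, so 0 members were called higher and 1 lower throughout. Socs1 was not tested under the stricter filter. Of 127 member values under the alternatives, 11 changed sign, all of them among members that did not pass. In the length-corrected fit Socs5 was at 0.02, Socs6 at 0.19 and Socs7 at 0.18, and with library size alone Cish was at -0.00. Leaving out 1 heart gave -0.49 to 0.13 for Socs1, -0.03 to 0.28 for Socs2, -0.06 to 0.07 for Socs6, -0.26 to 0.05 for Socs7 and -0.04 to 0.25 for Cish. Socs1 turned to 0.13 without wild type replicate 3 and 0.08 without STAT3cKO replicate 6, Socs2 to -0.03 without STAT3cKO replicate 91, Socs6 to 0.07 without wild type replicate 4 and 0.01 without STAT3cKO replicate 91, Socs7 to 0.05 without STAT3cKO replicate 6 and Cish to -0.04 without STAT3cKO replicate 3. Over all genes, 1918 were higher and 1820 lower. Library size alone gave 1109 higher and 2714 lower (29% of calls higher in place of 51.3%) and moved the median log2 fold change to -0.11, the length-corrected fit gave 1145 lower, and leaving out 1 heart gave 1237 to 1887 higher and 1198 to 1999 lower, the fewest without wild type replicate 4. With library size alone, 4 JAK and STAT genes and 3 genes of the other SOCS box families fell. The cause was not tested. No paired analysis was possible because the labels give no pairing of hearts. Depth limits Socs1, at 10 to 26 reads a heart, and Socs3.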
